A study of Mus musculus with 50 samples.

Results

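The MHC class I presentation machinery was followed here through 10 genes, B2m, Tap1, Tap2, Tapbp, Nlrc5, Psmb8, Psmb9, Psmb10, Erap1 and Irf1, in biopsies of 50 mouse mammary tumours. The genes were taken by name, and for each the probe set annotated to that gene alone with the highest mean was read. The arrays held such a probe set for 22180 genes, of which 16635 passed a filter on low values, and all 10 members passed it. The tumours arose spontaneously in female mice of a backcross, in which hybrids of C57BL/6J and FVB/NJ were crossed to FVB/NJ mice carrying MMTV-Erbb2. MMTV-Erbb2 is a transgene in which the promoter of a mammary tumour virus drives the oncogene Erbb2, and all tumours share it. All biopsies were taken before drug treatment, named as doxorubicin in the series title and as docetaxel in the sample labels, and they form 1 group with no control. RNA was read on Affymetrix arrays, 1 per tumour, as log2 expression, and the number of tumours limits the precision. A level of 1 probe set was not set against that of another.

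Class I molecules show peptides from inside the cell to CD8 T cells. The proteasome cuts proteins into peptides, a transporter carries the peptides into the endoplasmic reticulum, and a heavy chain paired with beta-2 microglobulin is loaded there with the help of chaperones. Interferons induce a variant of the proteasome, the immunoproteasome, in which 3 inducible catalytic subunits replace 3 constitutive ones. NLRC5 is the transactivator of class I genes, and IRF1 is a transcription factor that interferon gamma induces. Lower expression of this pathway is a known route by which tumours escape T cells.

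Promoter stretches of 5 members are shown because they hold the short motifs through which interferon factors, NF-kB and the CCAAT-binding factor NF-Y are known to act, and the members differ in which of them they hold. They come from the RefSeq windows of the GRCm38.p6 build, which run from 250 bases before to 50 bases after a gene's start. Windows were found for 8 of the 10 members, and the genes without one are Nlrc5 and Tap2. Capitals mark the matches, positions count from the start, and all stretches lie on the plus strand.
B2m, chr2:122147537-122147686: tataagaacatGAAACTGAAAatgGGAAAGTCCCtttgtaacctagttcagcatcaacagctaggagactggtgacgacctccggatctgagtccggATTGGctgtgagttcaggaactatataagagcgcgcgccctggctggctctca
Tap1, chr17:34187331-34187555: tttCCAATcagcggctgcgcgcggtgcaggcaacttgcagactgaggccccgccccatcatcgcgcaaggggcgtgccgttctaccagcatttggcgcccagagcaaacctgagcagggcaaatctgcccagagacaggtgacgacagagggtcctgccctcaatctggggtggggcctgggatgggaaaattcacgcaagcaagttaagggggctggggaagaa
Psmb8, chr17:34198085-34198124: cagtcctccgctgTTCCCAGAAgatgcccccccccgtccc
Irf1, chr11:53769914-53769963: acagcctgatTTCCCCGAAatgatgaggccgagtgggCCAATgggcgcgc
Erap1, chr13:74639823-74639862: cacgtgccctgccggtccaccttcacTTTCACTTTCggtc
The B2m stretch holds an interferon-stimulated response element from -139 to -130, then an NF-kB element from -126 to -117 and a CCAAT box in inverted orientation from -53 to -49. The Tap1 stretch is the whole interval between the starts of Tap1 and Psmb9, which are transcribed away from each other from starts 226 bases apart, so the single CCAAT box in it lies at -222 for Tap1 and ends at -4 for Psmb9. Psmb8 and Irf1 each hold a gamma-activated site, at -97 and at -90. Erap1 holds an interferon-stimulated response element across its start, from -4 to 6. The letters searched on both strands were GAAANNGAAA, TTCNNNGAA, GGGNNTTTCC and CCAAT, in which N is any base. Of all 32851 promoter windows, 3.44% held the first, 8.3% the second, 1.63% the third and 37.4% the last, against 2, 2, 1 and 5 of the 8 members with a window. A match is a run of letters and no evidence that a factor binds there.

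The 10 genes differed widely in how much they varied between tumours (plot of the members' levels by tumour). In these bulk biopsies fewer cells of a type and less RNA per cell cannot be told apart. Nlrc5 varied most, with 4.52 in mid82, a median of 5.6 and 8.13 in mid114 on the log2 scale (5.95 ± 1.0, SD, n = 50). Its 5th and 95th percentiles were 8.49-fold apart, and its SD stood at the 98.5th percentile of all tested genes, whose median was 1.63-fold. The Nlrc5 values ran on without a break larger than 0.45, which lay between 6.57 and 7.02 and had 11 tumours above it. Irf1 spread less, with 6.06 in mid115, a median of 6.72 and 7.77 in mid79 (6.78 ± 0.39, SD, n = 50).

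B2m, the light chain of every class I molecule, reached 11.39 in mid82, a median of 12.53 and 13.28 in mid147 (12.48 ± 0.5, SD, n = 50). This signal lay near the top of the array's scale, whose highest value was 13.65. Tap1, one chain of the peptide transporter, had 7.45 in mid111, a median of 8.68 and 10.52 in mid26 (8.8 ± 0.77, SD, n = 50), a 5.08-fold spread between the 5th and 95th percentiles. Its partner chain Tap2 had 6.64 in mid127, a median of 7.24 and 8.08 in mid26 (7.29 ± 0.3, SD, n = 50), a spread of 1.98-fold. The same biopsy was therefore highest for both chains, while the spread of Tap1 between tumours was wider on the log2 scale. Tapbp, the chaperone tapasin that bridges the transporter and the heavy chain, had 8.56 in mid127, a median of 9.32 and 10.11 in mid26 (9.32 ± 0.37, SD, n = 50). A second probe set of Tapbp had an SD of 0.2 and r of 0.593 with the one used.

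The inducible proteasome subunits also differed from each other. Psmb8 had 7.25 in mid122, a median of 8.43 and 10.05 in mid142 (8.54 ± 0.84, SD, n = 50), with a spread of 5.88-fold. Psmb9 had 6.06 in mid182, a median of 6.98 and 8.9 in mid114 (7.2 ± 0.75, SD, n = 50), with a spread of 4.59-fold. Psmb10 had 7.13 in mid125, a median of 7.81 and 8.83 in mid79 (7.89 ± 0.4, SD, n = 50), with a spread of 2.51-fold. The constitutive subunits that these replace varied less, with spreads of 1.5-fold for Psmb5, 1.44-fold for Psmb6 and 1.78-fold for Psmb7. Erap1, the peptidase that trims peptides to length in the endoplasmic reticulum, had 7.85 in mid177, a median of 8.41 and 9.05 in mid25 (8.43 ± 0.26, SD, n = 50). Its spread of 1.92-fold was the smallest of the 10, and its SD stood at the 58.7th percentile of tested genes.

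**Figure D1:**
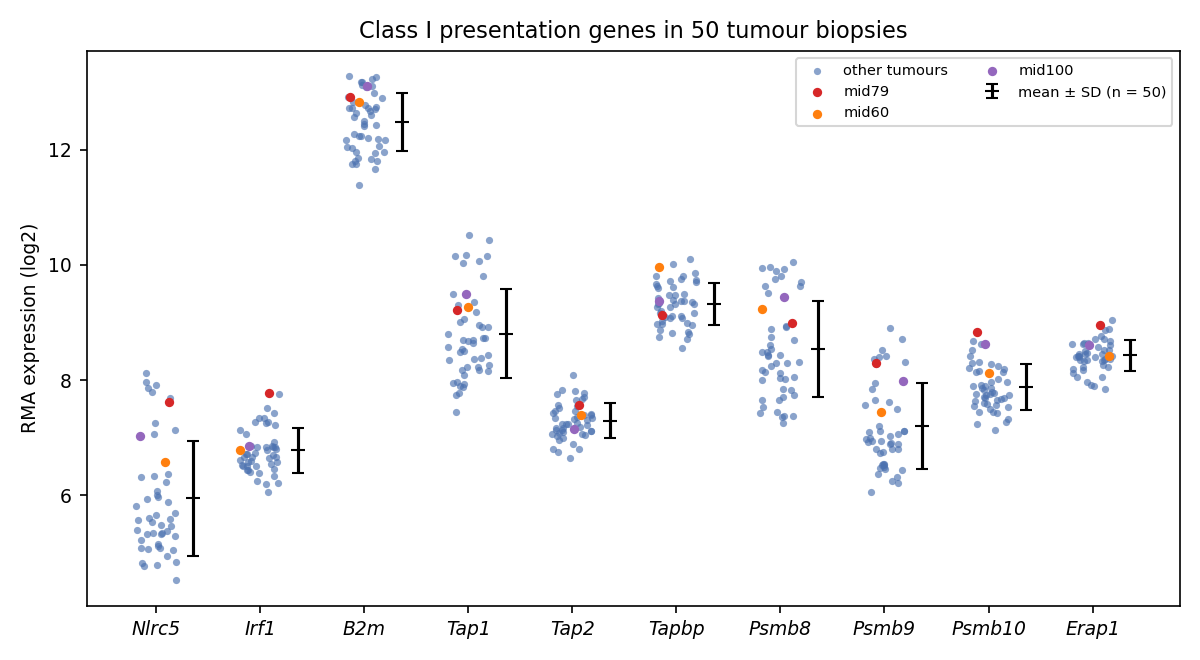
Log2 expression (vertical axis) of the 10 members (horizontal axis) in 50 tumours, 1 point per tumour, with the mean and SD as a bar beside each gene and the 3 arrays least like the others in colour. Nlrc5 spans 4.52 to 8.13 while Erap1 spans 7.85 to 9.05, and levels of different genes are not comparable.

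The tumours tended to be high or low for many members at once. The biopsy mid30 was among the 10 highest tumours for all 10 genes, and mid114, mid147, mid26 and mid36 were so for 9. With mid142 and mid91 at 8 genes, 7 tumours were among the 10 highest for at least 8 members. At the other end, mid29 was among the 10 lowest for 9 genes, and mid42 and mid82 for 8. Only 5 of the 50 tumours were among the 10 highest for one member and among the 10 lowest for another.

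Over the 45 pairs of members the median Pearson's r across the 50 tumours was 0.668 (matrix of pairwise correlations). These are given as a description, since all pairs share the same arrays and RNA. In 12 pairs r was above 0.8. The closest pair was Tap1 with Psmb9 (r = 0.939), and Nlrc5 followed with Psmb9 (r = 0.928) and with Tap1 (r = 0.927). In the RefSeq gene order Psmb9, Tap1, Psmb8 and Tap2 stand side by side on chromosome 17. Tap2 had r of 0.718 with Tap1, 0.685 with Psmb9 and 0.643 with Psmb8, against 0.762 with Tapbp. Tapbp lies outside that run of genes but in the same MHC region of the chromosome. B2m, on chromosome 2, had r of 0.904 with Tap1.

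Erap1 stood apart from the rest, with a median r of 0.348 with the other members and its lowest value with Irf1 (r = 0.228). Its highest values were with Tap2 and Psmb10 (both r = 0.598). Irf1 was the next least related, with a median r of 0.571 and its closest partner in Psmb9 (r = 0.705). Without the 3 arrays least like the others, the pair of Tap1 and Psmb9 had r of 0.946 and that of Erap1 and Irf1 0.137.

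**Figure D2:**
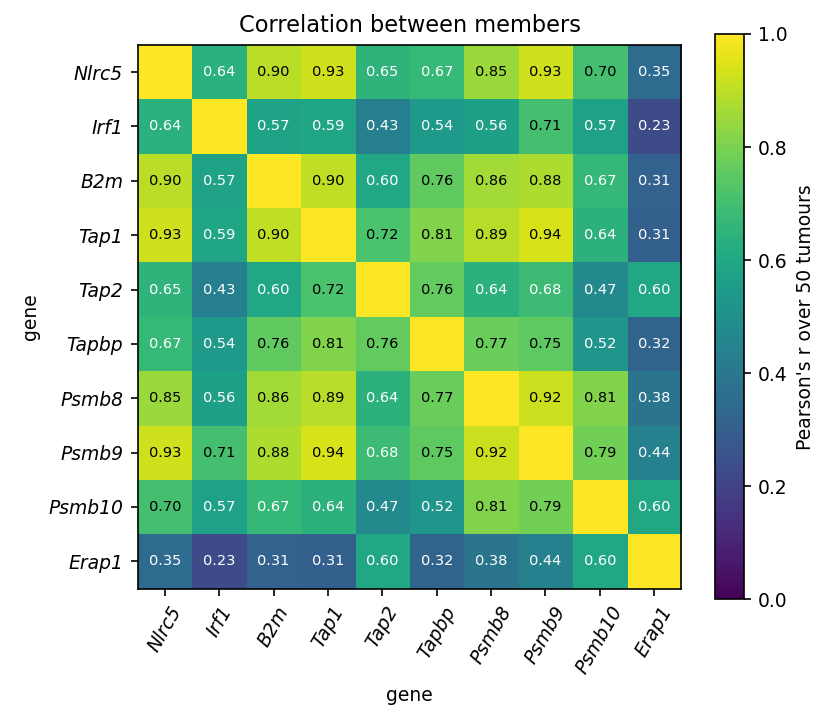
Pearson's r between each pair of members over 50 tumours, printed to 2 decimals in each cell and shown by colour. Nlrc5, B2m, Tap1, Psmb8 and Psmb9 form a block with r from 0.85 to 0.939, and the row of Erap1 runs from 0.228 to 0.598.

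All 9 other members had positive slopes on Nlrc5, and all but Erap1 were called higher. The levels of every tested gene were regressed on Nlrc5 with limma, and a gene was called when its p, adjusted by the Benjamini-Hochberg method over all 16634 genes other than Nlrc5, was under 0.05. Slopes are changes in log2 expression per 1 SD of the predictor over the 50 tumours. By this test 8 of the 9 other members were higher and none was lower, where 5.43% of all tested genes were called higher. The median slope of the 9 was 0.28 and that of all tested genes -0.0077.

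The steepest slopes were those of Tap1 (0.72 ± 0.04, SE, adjusted p = 2.25e-19), Psmb8 (0.72 ± 0.06, adjusted p = 1.32e-12) and Psmb9 (0.69 ± 0.04, adjusted p = 2.21e-19). B2m followed with 0.45 ± 0.03 (adjusted p = 9.67e-16), or 1.37-fold per SD of Nlrc5. The plot of members against Nlrc5 shows B2m bending over at its upper end, and its rank correlation (Spearman's rho = 0.936) was above its Pearson's r of 0.896. Psmb10 (0.28 ± 0.04), Irf1 (0.25 ± 0.04), Tapbp (0.25 ± 0.04) and Tap2 (0.20 ± 0.03) rose less steeply per SD. For these 8 genes Pearson's r ran from 0.638 to 0.928, and the permutation p was 1e-05, the smallest that 100000 permutations can give (adjusted over all tested genes 0.000815). Without mid114 and mid147, the 2 tumours farthest from the median of Nlrc5, r for Tap1 was 0.914 and for Irf1 0.583.

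Erap1 did not pass the test with Nlrc5 (slope 0.09, 95% interval 0.02 to 0.16, adjusted p = 0.0813), and its promoter stretch, like that of B2m, holds the interferon element printed above. Its Pearson's r with Nlrc5 was 0.348 (permutation p = 0.0133, adjusted 0.0846). Whether its slope differs from those of the other members was not tested.

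**Figure D3:**
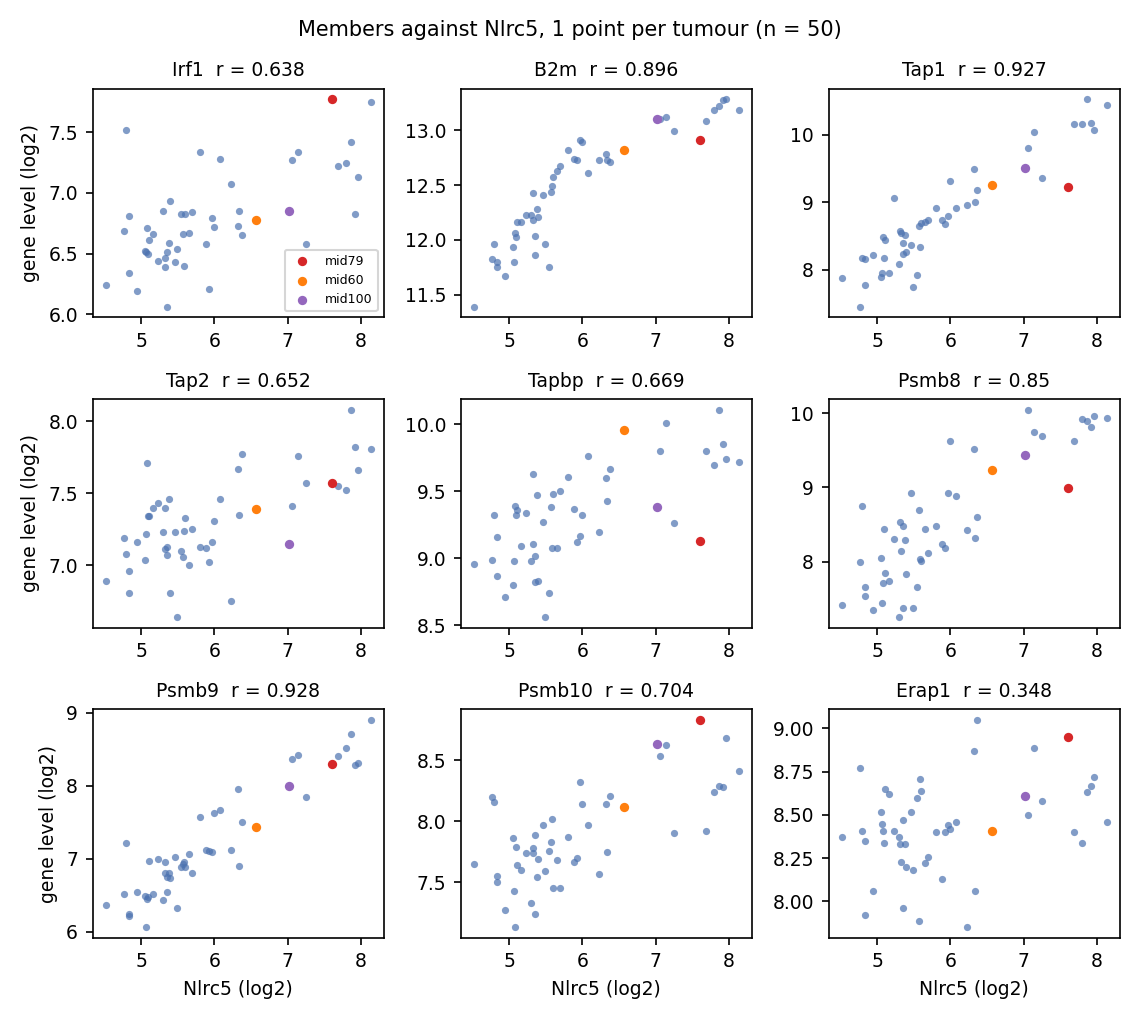
Log2 level of each of 9 members (vertical axes) against the log2 level of Nlrc5 (horizontal axes), 1 point per tumour, with the 3 arrays least like the others in colour and Pearson's r above each panel. Tap1 and Psmb9 follow Nlrc5 closely (r of 0.927 and 0.928), B2m levels off near 13 and Erap1 scatters (r of 0.348).

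The other genes of the pathway followed Nlrc5 in part. Of 16 tested class I heavy chain and related genes, 8 were higher with Nlrc5 and none was lower, by the same limma test. Of all tested genes, 5.43% were called higher. H2-K1, a classical heavy chain, ran from 8.33 in mid82 over a median of 9.78 to 11.08 in mid142 and had a slope of 0.69 ± 0.05 (SE, adjusted p = 2.42e-14). H2-Q4 had a slope of 0.76 ± 0.05 (adjusted p = 7.79e-17) and H2-Q10 one of 0.35 ± 0.03 (adjusted p = 1.05e-11). The call of H2-Q10 was lost when its other probe sets were averaged in or the most variable one was used. Heavy chain genes are near copies of each other, probe sets can read more than 1 of them, and 7 listed genes, H2-D1 among them, had no probe set of their own.

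The loading chaperones that serve all glycoproteins did not rise with Nlrc5. Calreticulin (Calr) had a slope of -0.0045 and the disulfide isomerase Pdia3 one of 0.00096, with adjusted p of 0.939 and 0.99 in limma. Uggt1 (-0.03) and Hspa5 (-0.01) were not called either. Calnexin (Canx) was lower (slope -0.09 ± 0.02, adjusted p = 0.0117), a call that was lost without the 3 arrays least like the others and with 4 cell type scores as covariates. Its lowest value, 10.68, was in mid79, as were those of Calr, Pdia3, Uggt1 and Hspa5. The Canx call held without mid79 and mid60 (slope -0.07, adjusted p = 0.0413 in limma). Tapbpl, a relative of tapasin that edits class I peptides, was the 1 of these 6 genes that was higher (0.16 ± 0.03, adjusted p = 0.00182).

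The genes of the proteasome also followed Nlrc5 in part, and not wholly along the line between inducible and constitutive subunits. Where the inducible Psmb8, Psmb9 and Psmb10 were called higher, the constitutive Psmb5 (slope -0.0015, 95% interval -0.06 to 0.05) and Psmb6 (slope -0.005, 95% interval -0.06 to 0.05) were not called. Psmb7, which Psmb10 replaces, was called higher in the same direction as Psmb10, with a slope of 0.13 ± 0.04 (adjusted p = 0.0105 in limma) against 0.28 for Psmb10. Of 15 other subunits and assembly factors of the core particle, 3 were higher, Psma1, Psma7 and Psmb2, and 1 was lower, Psmg1. Of all tested genes, 5.43% were called higher and 6.29% lower, so the count lower is near its share and is not read further. Psma7 had a slope of 0.15 ± 0.04 (adjusted p = 0.00533) and Psmb2 one of 0.15 ± 0.04 (adjusted p = 0.0235). Psma7 kept its call under 12 of 12 alternatives, and Psmb2 lost its call on ranks, without the 3 arrays least like the others and with 4 cell type scores as covariates. Psmg1 had one of -0.13 ± 0.04 (adjusted p = 0.0288), which was lost without mid79 and mid60 (adjusted p = 0.0729).

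None of the 4 proteasome activators was called with Nlrc5 in limma, nor any of 6 cytosolic and endosomal peptidases. At an unadjusted p under 0.05 there were 1 and 2 genes. With 5.43% of all tested genes called higher and 6.29% lower, counts in lists this short are not read further. Psme1 and Psme2 encode the activator PA28, known to be induced by interferon gamma. Psme1 had a slope of 0.05 (95% interval -0.01 to 0.12) and Psme2 one of -0.03 (95% interval -0.07 to 0.02). The SD of Psme2 over the tumours, 0.14, stood at percentile 12.1 of tested genes.

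The factors with which NLRC5 is known to work on class I promoters are the RFX complex, NF-Y and their partners. Of 9 tested genes of this group and of NF-kB, none was called higher with Nlrc5, with Rfx5 at -0.03 ± 0.03. One, Rfxap, was lower (-0.09 ± 0.03, adjusted p = 0.0276 in limma). These counts are near the shares of all tested genes, 5.43% higher and 6.29% lower, so nothing is read from them. Atf1 and Nfkb1 had no probe set of their own. The Rfxap call was lost without mid114 and mid147 and without the 3 arrays least like the others.

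**Figure D4:**
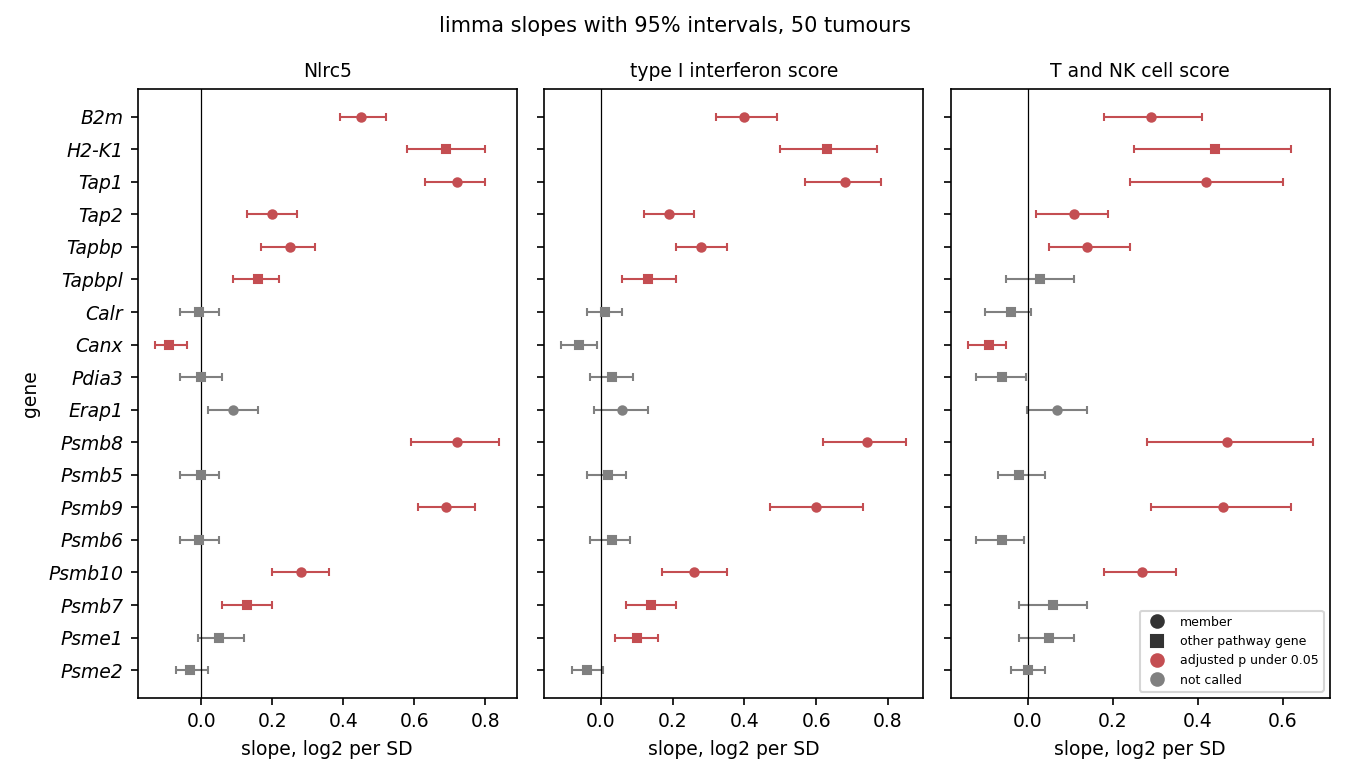
Slopes in log2 per SD (horizontal axes) with 95% intervals for members (circles) and other pathway genes (squares) on Nlrc5, on the type I interferon score and on the T and NK cell score, with called genes in red. In the Nlrc5 panel Psmb8 and Psmb9 sit at 0.72 and 0.69, Psmb5 and Psmb6 at -0.0015 and -0.005, and the called Psmb7 at 0.13.

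Over the whole table, the genes outside the members that followed Nlrc5 most closely were Gm10499 (slope 0.54 ± 0.02, r = 0.955), Gm12250 (0.95 ± 0.05, r = 0.933), H2-Q4, H2-K1, Igtp, Irgm2, Gbp10, Gbp9, Stat2 and Uba7. Igtp, Irgm2 and the Gbp genes encode GTPases that interferon induces to defend cells against intracellular microbes, and Uba7 is the enzyme that activates the ubiquitin-like protein ISG15. All 10 had adjusted p of 1.32e-12 or lower in limma. The genes that fell most surely with Nlrc5 were Samd12 (-0.50 ± 0.07), Wls (-0.21 ± 0.03), Bex4 (-0.55 ± 0.08), Spata1 (-0.21 ± 0.03) and Fzd3 (-0.27 ± 0.04). Wls carries Wnt proteins to the cell surface and Fzd3 is a Wnt receptor.

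By the mean of r over the 10 members, the most similar genes were Uba7 (0.773), Gm10499 (0.764), Irgm2 (0.758), Gm12250 (0.754), H2-Q4 (0.742), Igtp (0.741), Lgals3bp (0.739), Gbp7 (0.735), Gbp3 (0.726), H2-K1 (0.722), Parp14 (0.718), Sp110 (0.716), Ddx60 (0.716), Znfx1 (0.714) and Gbp9 (0.7), over the same 50 tumours. For each of the 15 the lowest r among the members was the one with Erap1.

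The members were then set against the response to interferons. A score of the type I interferon response was the mean of 21 standardised genes, such as the antiviral Ifit and Oas genes, and a score of the interferon gamma response that of 15 genes, such as the Gbp genes. Neither list holds a member. With the type I score, 9 of 10 members were higher and none was lower, against 3.56% of all tested genes called higher (limma). With the interferon gamma score all 10 were higher, against 9.95%.

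Psmb8 (slope 0.74 ± 0.06, adjusted p = 1.03e-14), Nlrc5 (0.78 ± 0.09, adjusted p = 2.65e-09) and Tap1 (0.68 ± 0.05, adjusted p = 4.27e-15) rose most per SD of the type I score in limma. Nlrc5 had r of 0.778 with this score and 0.849 with the interferon gamma score, and the scores themselves had r of 0.828 with each other. Erap1 was not called with the type I score (0.06 ± 0.04, adjusted p = 0.384). With the interferon gamma score it was (0.10 ± 0.04, adjusted p = 0.0379), a call that held under 6 of 13 alternatives and was lost without mid79 and mid60 (adjusted p = 0.173) and without mid79 and mid114.

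The cytokine interferon gamma (Ifng) itself ran from 4.07 to 4.73 with a median of 4.36, and its mean lay below the filter of 4.39, so it was not tested. Of 13 tested genes of interferons, receptors and signalling, 5 were higher with Nlrc5 (5.43% of all tested genes) and none was lower. These were Stat2 (slope 0.69 ± 0.06, adjusted p = 1.32e-12) and Irf9 (0.29 ± 0.05, adjusted p = 0.000202), the partners in the factor that answers type I interferon, Irf2 (0.17 ± 0.02, adjusted p = 5.33e-08), Jak1 (0.23 ± 0.05, adjusted p = 0.00342) and Irf8 (0.19 ± 0.05, adjusted p = 0.00575). The receptor chains Ifnar1, Ifnar2, Ifngr1 and Ifngr2 had slopes from -0.02 to 0.16 and were not called. Of them, Ifngr1 was higher at an unadjusted p under 0.05 in limma.

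The members were also higher in tumours with more T and NK cell RNA. The T cell marker Cd3e ran from 4.7 in mid82 over 5.28 to 6.82 in mid79, and Cd8a from 4.34 in mid111 over 4.72 to 5.5 in mid142. Cd4 ran from 4.6 over 5.16 to 6.55, and the cytotoxic granule protease Gzmb from 4.01 over 4.84 to 6.39. The NK receptor Ncr1 (median 4.12) lay below the level filter. These markers were thus low on the array's scale, where differences are compressed.

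With the score of 18 T and NK cell genes, 9 of 10 members were higher by limma, where 11.4% of all tested genes were called higher. Nlrc5 had the steepest slope (0.67 ± 0.10, adjusted p = 5.31e-06, r = 0.673), followed by Psmb8 (0.47 ± 0.10), Psmb9 (0.46 ± 0.08) and Tap1 (0.42 ± 0.09). Tap2 was the weakest of those called (0.11 ± 0.04, adjusted p = 0.0443), a call that 5 of 13 alternatives kept. Erap1 was not called (0.07 ± 0.04, adjusted p = 0.145). The same score was higher with 10 of 10 endothelial, 6 of 6 adipocyte and 9 of 9 B and plasma cell genes. It was also higher with 11 of 18 macrophage and 6 of 11 fibroblast genes. It was lower with 9 of 11 luminal and 10 of 11 proliferation genes, where 15.9% of all tested genes were called lower. Without mid79 and mid60, 300 genes were called higher and 262 lower, against 1891 and 2640 with all 50 tumours. The counts by list are from all 50 tumours and were not repeated without these arrays. With fibroblast, endothelial, macrophage and adipocyte scores as covariates the slope of Tap1 was 0.42 and its adjusted p 0.206, and 0 of 10 members were called, with 8 at an unadjusted p under 0.05.

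The array mid79 held the highest T and NK cell score, 4.01 SD above the mean, with 6.18 for B and plasma cell genes, 6.25 for adipocyte genes and -6.15 for luminal epithelium, and it had the lowest levels of Krt8, Krt18 and Epcam. It and mid60 were also lowest in Erbb2, with 9.25 and 9.02 against a median of 11.71. In mid79 Nlrc5 was 7.61, and Irf1 and Psmb10 were at their highest, while Tapbp was 9.13, under its median. Without mid79 and mid60, 8 of 10 members were called with the T and NK cell score, Tap2 no longer (adjusted p = 0.151 in limma). The part of other cell types in these biopsies was not tested further.

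With the B and plasma cell score 2 of 10 members were higher, Irf1 (0.13 ± 0.05, adjusted p = 0.0459) and Psmb10 (0.17 ± 0.05, adjusted p = 0.0104), against 12.7% of all tested genes. Without mid79 and mid60 no member was called by limma, with 1 at an unadjusted p under 0.05, and no gene of the table was called higher. The share of members called higher was near that of all genes, so nothing is read from it.

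In T and NK cell genes as a list, 10 of 18 were higher with Nlrc5, against 5.43% of all tested genes. In the macrophage list 6 of 18 were higher, in the endothelial list 6 of 10 and in the B and plasma cell list 1 of 9. The last count is near the share of all tested genes, so nothing is read from it. Cd3e (0.28 ± 0.05, adjusted p = 5.21e-05), Cd8a (0.17 ± 0.03, adjusted p = 0.000562) and Gzmb (0.33 ± 0.07, adjusted p = 0.000727) rose with Nlrc5 in limma, while Cd4 was not called (0.14 ± 0.05, adjusted p = 0.0936). No gene of the luminal or proliferation lists was called in limma, with 11 genes tested in each and 4 luminal genes lower at an unadjusted p under 0.05. Of 8 class II presentation genes 4 were higher with Nlrc5, among them the class II transactivator Ciita (0.13 ± 0.03, adjusted p = 0.00809) and H2-DMa (0.16 ± 0.04, adjusted p = 0.00376). Both were highest in mid79, and both calls held without mid79 and mid60 (adjusted p = 0.026 for Ciita and 0.0142 for H2-DMa in limma). Each call held under 11 of 12 alternatives and was lost with 4 cell type scores as covariates. H2-Ab1 (0.36 ± 0.11, adjusted p = 0.0294) was not called without mid79 and mid60 (adjusted p = 0.0814).

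When both scores entered 1 fit, most members rose with the type I interferon score given the T and NK cell score (plot of partial slopes). The T and NK cell markers were low on the array's scale, so the fit may not remove all of the T and NK cell part. The interferon gamma score was not entered together with the T and NK cell score. The scores had r of 0.446 with each other. Given T and NK cells, 8 of 10 members rose with the interferon score, against 3.06% of all tested genes, with slopes of 0.66 ± 0.06 for Psmb8, 0.61 ± 0.05 for Tap1 and 0.59 ± 0.08 for Nlrc5. Irf1 (0.12 ± 0.05, adjusted p = 0.151) and Erap1 (0.03 ± 0.04, adjusted p = 0.752) did not pass in limma.

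Given the interferon score, 7 of 10 rose with T and NK cells, against 9.89% of all tested genes. Here Nlrc5 led with 0.41 ± 0.08 (adjusted p = 0.00022), and Psmb10 (0.19 ± 0.04) and Psmb9 (0.23 ± 0.06) followed, while Tap2 (0.03 ± 0.04), Tapbp (0.02 ± 0.04) and Erap1 (0.06 ± 0.04) were not called. These 7 calls were not stable. Without mid79 and mid60 none of the 10 was called, with 6 at an unadjusted p under 0.05, and without mid79 and mid147 1 was. The slope of Nlrc5 stayed between 0.29 and 0.45 over the alternatives on the log2 scale.

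**Figure D5:**
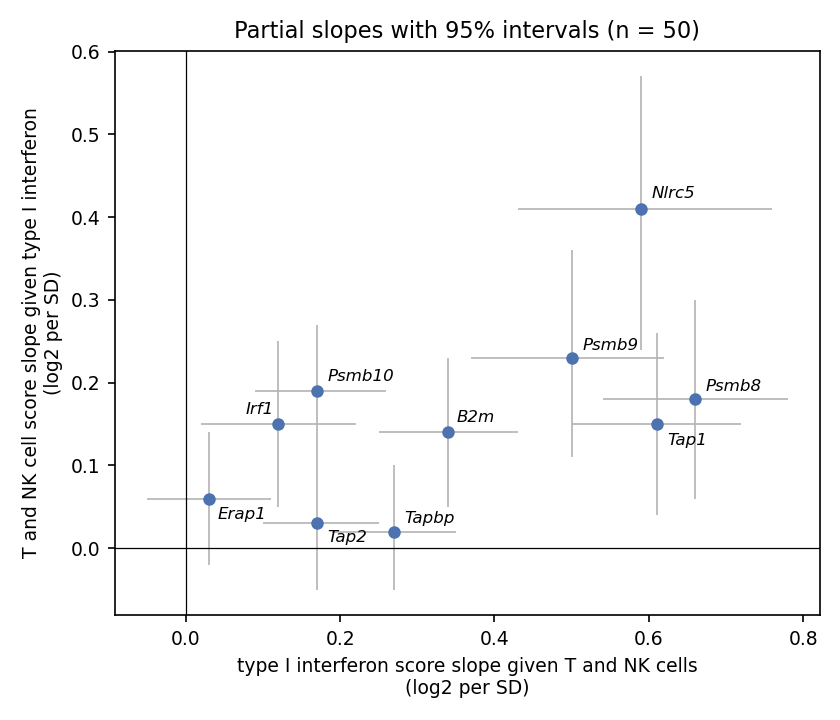
Partial slopes of the 10 members in 1 fit with both scores, in log2 per SD, on the type I interferon score (horizontal) and on the T and NK cell score (vertical), with 95% intervals over 50 tumours. Psmb8, Tap1 and Nlrc5 lie farthest right (0.66, 0.61 and 0.59), Nlrc5 highest (0.41), and Tap2 and Tapbp near 0 on the vertical axis.

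Nlrc5 and the type I interferon score, which had r of 0.778 with each other, were also put into 1 fit. Only the partial slope of Nlrc5 was read from it, and the interferon gamma score was not adjusted for. Given the type I interferon score, 5 of 9 members rose with Nlrc5, against 1.22% of all tested genes. They were Psmb9 (0.57 ± 0.06, adjusted p = 3.35e-09), Tap1 (0.47 ± 0.05, adjusted p = 3.35e-09), Psmb8 (0.36 ± 0.08, adjusted p = 0.0091), B2m (0.35 ± 0.05, adjusted p = 5.42e-06) and Irf1 (0.26 ± 0.07, adjusted p = 0.0375). Tapbp had a partial slope of 0.07 (95% interval -0.04 to 0.17) and was not called. On ranks in place of log2 values none of the 9 was called, with 4 at an unadjusted p under 0.05, and no gene of the table was called. Without mid79 and mid60, 3 of 9 were called.

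The levels of the transactivator Nlrc5 and of Irf1, which had r of 0.638, were also entered together, and the difference between their partial slopes was not tested. Given Irf1, 7 of 8 members rose with Nlrc5, against 1.48% of all tested genes, Erap1 being the exception (0.09 ± 0.05, adjusted p = 0.329). Given Nlrc5, 0 of 8 rose with Irf1 in limma, against 0.571% of all tested genes, with 1 at an unadjusted p under 0.05. That one was Psmb9 (0.14 ± 0.05, adjusted p = 0.144), and Tap1 had a partial slope on Irf1 of -0.0061 (95% interval -0.12 to 0.10). On ranks 4 of 8 were called with Nlrc5 given Irf1.

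The mice segregate C57BL/6J and FVB/NJ alleles at the MHC region on chromosome 17, where Tap1, Tap2, Tapbp, Psmb8 and Psmb9 lie, and probes can read alleles unequally. The transcript D17H6S56E-5 of that region, which ran from 6.56 over 9.08 to 10.7 among the tumours, was added to the fit with Nlrc5. None of the 9 members was called higher or lower with it in limma, against 0.0361% of all tested genes called higher, and 1 had an unadjusted p under 0.05, Irf1 (-0.09 ± 0.04, adjusted p = 0.883). The 6 genes called were Vars (0.40 ± 0.03), the heavy chain genes H2-T23 (0.36 ± 0.04, adjusted p = 1.26e-07) and H2-M2 (0.29 ± 0.04, adjusted p = 0.000126), the class II gene H2-Eb1 (0.46 ± 0.07, adjusted p = 0.000212), 9130008F23Rik and Snhg9. They were named after their values were seen.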

How the data were processed

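The deposited values are log2 expression per probe set after RMA (background correction, quantile normalization and probe summary), which the authors ran per the submitters' processing notes; its version and the role of the build mm8 named there are not given in the sources used here. Quantile normalization hides changes shared by most genes. Total RNA was extracted with Trizol per the labels' protocols. The labels give no batch and do not say whether tumours can share a mouse, so p-values measure the spread between these biopsies.

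Of 34472 probe sets, 23521 name 1 gene, 1814 several and 9137 none in the platform annotation; 23328 matched a RefSeq gene table (GRCm38.p6, used for names and order) by Entrez identifier and 193 did not. The tests kept genes whose mean reached 4.39 log2, which is percentile 25 over genes. Array medians were 5.19 to 5.34. The mean r of an array with the others had a median of 0.976 and was under 0.96 in mid79, mid60 and mid100. No 2 arrays were identical (highest r 0.992).

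Regressions used limma 3.58.1 in R 4.3.3 (lmFit, eBayes with trend) on standardised predictors, leaving predictor genes out of the counts, and were tested on simulated data. Permutation tests (100000, two-sided) ran in Python 3.11.15 and were adjusted over all tested genes. The members, lists and tests were chosen with earlier results of these data known. Named genes are all members, the 3 genes of each pathway list with the largest absolute statistic on Nlrc5, all constitutive subunits, chaperones and activators, the 15 genes with the highest mean r over members, and the 10 highest and 5 lowest on Nlrc5; others were named after their values were seen. The fit with D17H6S56E-5 and the setting without mid79 and mid60 were added after seeing the data.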

Additional observations from a re-analysis of the deposited data

How the results depend on the processing

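Each fit was repeated with other filters, probe set rules, normalization, ranks, array weights, median scores and covariates, and without tumours. Of 1296 member slopes compared, 1193 kept their side of the threshold, 99 lost the call, 3 gained one and 1 called slope turned: Irf1 with the B and plasma cell score, at -0.01 with 4 cell type scores as covariates. Among the 1193, 40 slopes called in neither setting changed sign. With Nlrc5 and with the type I interferon score, the members called kept their calls under all of these, and Erap1 was called under none. The members called higher with the T and NK cell score were 0 of 10 with 4 cell type covariates. With the B and plasma cell score they were 1 of 10 with no filter or with D17H6S56E-5 as a covariate, and 0 of 10 on ranks, with array weights, without mid79 and mid60, without the 3 arrays under 0.96 and with 4 cell type covariates. For T and NK cells given type I interferon they were 0 of 10 on ranks, with array weights, without the 3 arrays, without mid79 and mid60 and with 4 cell type covariates, and 1 without mid79 and mid147. For Nlrc5 given type I interferon they were 0 of 9 on ranks, and 3 with array weights, without the 3 arrays and without mid79 and mid60. For Nlrc5 given Irf1 they were 4 of 8 on ranks. Genes called over the whole table moved more. With Nlrc5 they numbered 1949, and 1072 with 4 cell type covariates. With the type I score they numbered 1338, with 801 (4 covariates) to 2382 (array weights). With the interferon gamma score they numbered 3727, with as few as 419 (4 covariates), and with T and NK cells 4531, with as few as 40 (4 covariates) and 562 without mid79 and mid60. With B and plasma cells they numbered 4897, and 0 without mid79 and mid60. Type I interferon given T and NK cells gave 851, with as few as 508 (ranks), and T and NK cells given type I interferon 3824, with as few as 6 (4 covariates) and 7 without mid79 and mid60. Nlrc5 given type I interferon gave 313, with 0 (ranks) to 745 (median scores), Nlrc5 given Irf1 450, with 202 to 817, Irf1 given Nlrc5 158, with 0 to 507, and D17H6S56E-5 6, with as few as 2. The cause was not tested. Low levels, as for Ifng and Ncr1, limit what could be seen. No paired analysis was possible because all tumours form 1 group.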

Other observations

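Nlrc5 was also set against 13 scores of cell types and programmes by permutation tests over the 50 tumours, with p adjusted over the 13. Beside the interferon and T and NK cell scores, it rose with the endothelial score (r = 0.4, permutation p = 0.00451, adjusted 0.0117, rho = 0.335). Without mid114 and mid147, the tumours farthest from the median of Nlrc5, this r was 0.391, and without mid79 and mid60 it was 0.32. Nlrc5 rose with macrophage genes as well (r = 0.37, permutation p = 0.00807, adjusted 0.0175, rho = 0.389), with r of 0.34 and 0.345 under the same omissions. With adipocyte genes r was 0.38 (permutation p = 0.00276, adjusted 0.00897), and 0.343 and 0.38 under those omissions, while rho was 0.287 (permutation p = 0.0435, adjusted 0.0942). With luminal epithelium r was -0.197 (permutation p = 0.174, adjusted 0.226), and -0.0121 without mid79 and mid60. With proliferation genes r was -0.145 (permutation p = 0.317, adjusted 0.374), and with fibroblast genes 0.227 (permutation p = 0.113, adjusted 0.163). The part of these cell types in the level of Nlrc5 was not tested.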
